A study of Mus musculus with 6 samples.

Results

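The small intestine was 1 of 6 tissues of 4-week-old mice, all wild type (WT), of the C57BL/6J strain and without treatment, on which ribosome profiling (Ribo-seq) was performed. Ribo-seq sequences the mRNA fragments that translating ribosomes protect from RNase. The other 5 libraries carry the labels brain, colon, heart, kidney and lung, with 1 library per tissue, and how many animals contributed to a library is not given in the sources used here. The library described here was chosen by its label. It was set against the mean of the other 5 libraries on the log2(RPKM + 1) scale over 18437 mRNAs, 1 per protein-coding gene. RPKM, the reads on a coding sequence (CDS) scaled by its length and by the reads on all CDSs, was used as the ribosome density. Every library is named by its label, and levels are RPKM throughout. Because each tissue has 1 library, there is no replicate error, no test was made and no p-value is given.

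The label was set beside markers first, because the markers of brain were at their highest in the library labelled small intestine. The markers were chosen with earlier results of these data known. Their peak here is therefore descriptive and not an independent check of the label. Snap25 is a neuronal SNARE protein of synaptic vesicle fusion, Gfap the intermediate filament of astrocytes, Mbp a structural protein of myelin, and Cpe the carboxypeptidase that trims neuropeptide precursors. Snap25 stood at 0.761, 0.718, 1.98, 13.2 and 0 RPKM in the brain-, colon-, heart-, kidney- and lung-labelled libraries, respectively, and at 683 RPKM here. For Mbp the same 5 libraries held 24.6, 9.18, 3.10, 13.4 and 8.97 RPKM, and the library labelled small intestine 102 RPKM. For Cpe they held 291, 121, 919.5, 659.9 and 158 RPKM against 11081 RPKM. Thus no other library reached the level found here for these 3 mRNAs, and the closest was the brain-labelled one for Mbp. Gfap had 328 reads (33.3 RPKM) here and no reads in any other library. Set against the 0.516 RPKM that 3 reads would give in the shallowest of the other libraries, Gfap was at least 64.4-fold higher. On the log2(RPKM + 1) scale the library stood above the mean of the others by 8.02 for Snap25, 5.10 for Cpe, 5.10 for Gfap and 3.24 for Mbp. Exact Poisson 95% intervals of the density ran from 659.7 to 707 RPKM for Snap25, from 29.8 to 37.1 for Gfap, from 93.9 to 111 for Mbp and from 11018 to 11143 for Cpe. These intervals cover counting error only, since reads without molecular identifiers are not independent molecules. In GRCm39, Snap25 lies on chromosome 2 from 136533580 to 136624362, Gfap on chromosome 11 from 102778159 to 102791738, Mbp on chromosome 18 from 82493207 to 82603763, and Cpe on chromosome 8 from 65045555 to 65146435. The reads counted lay on their CDS exons, and the Mbp mRNA in the files has a CDS of 750 nt.

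**Figure D1:**
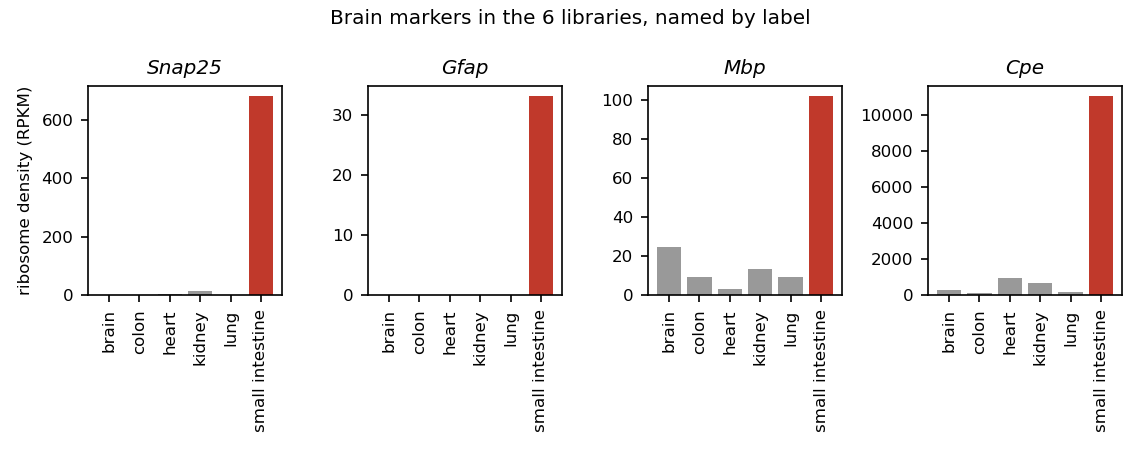
Ribosome density (RPKM, linear axis from 0, 1 scale per panel) of Snap25, Gfap, Mbp and Cpe in the 6 libraries, named by label on the horizontal axis, with 1 bar per library and no replicates. The bar of the library labelled small intestine (red) is the tallest in all 4 panels, at 683, 33.3, 102 and 11081 RPKM.

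Markers of gut epithelium went the other way. Epithelial keratins, claudins and cadherin (9 mRNAs) summed to 211 RPKM here, against 19994 RPKM in the brain-labelled library and 7796 RPKM in the kidney-labelled one. The 15 enterocyte markers, among them the apolipoproteins and the brush border hydrolases, summed to 747 RPKM here and to 66376 RPKM in the brain-labelled library. The kidney list of 9 mRNAs summed to 22580 RPKM in the colon-labelled library and to between 16.1 and 591 RPKM in the other 5. The colon epithelium list of 7 mRNAs summed to 11504 RPKM in the brain-labelled library and to 5573 RPKM in the kidney-labelled one. In the colon-labelled library the list summed to 12.6 RPKM. The colon markers Car1 and Aqp8 differed from this sum, which was highest in the brain-labelled library. Their own highest levels, 434 and 123 RPKM, were in the kidney-labelled library. Heart muscle and lung epithelium markers peaked under their own labels, at a summed 144173 and 87850 RPKM. Therefore 4 of the 6 labels, small intestine among them, went against their markers. The mapping was kept as labelled, and the main counts below are also given with the heart- and lung-labelled libraries as the comparison. Between 4504853 and 10635031 reads were recovered per library, 7644645 of them in the library labelled small intestine, in which 15028 mRNAs had reads.

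In the brain, neurons send signals by calcium-triggered fusion of synaptic vesicles, and receptors held in a postsynaptic scaffold receive them. Oligodendrocytes wrap axons in myelin, and astrocytes take up glutamate and potassium released by neurons. Many neurons also store peptides in dense-core vesicles, a pathway they share with the enteroendocrine cells of the gut.

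The library labelled small intestine was at least 4-fold above the mean of the other 5 (a difference of at least 2 on the log2(RPKM + 1) scale) for 2218 of 18437 mRNAs (12.0%), hereafter called higher. It was at least 4-fold below for 1238 mRNAs (6.71%), called lower, and the median difference over all mRNAs was 0. At least 2-fold more than in every other library, on the same RPKM + 1 scale, was reached by 2063 mRNAs (11.2%), which are said to peak here. Of the 2218 higher mRNAs, 1729 (78.0%) also peaked, 2088 had their highest density of all 6 libraries here, and 158 had no reads in any other library. On this scale the median higher mRNA stood 9.24-fold above the others, and 376 stood at least 32-fold above. Higher mRNAs had a median of 313 reads, and 4 of them had fewer than 10. They held 54.5% of the reads of the library (Wilson 95% interval 54.42% to 54.49%), against 5.38%, 10.5%, 5.35%, 25.5% and 4.54% of the reads of the brain-, colon-, heart-, kidney- and lung-labelled libraries. A larger share here than elsewhere follows from how these mRNAs were chosen. Kri1, a nucleolar protein gene of ribosome assembly, held 14.1% of the reads here at 66762 RPKM and was denser still in the kidney-labelled library, at 104584 RPKM and 22.1% of the reads. RPKM does not show where on the Kri1 CDS these reads lie. Without Kri1, the other 2217 higher mRNAs held 40.3% of the reads here. In the kidney-labelled library, Kri1 made up most of the 25.5%. With the heart- and lung-labelled libraries as the comparison, 2277 mRNAs were higher and 1511 lower, and 1905 of the 2218 (85.9%) were among the higher.

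**Figure D2:**
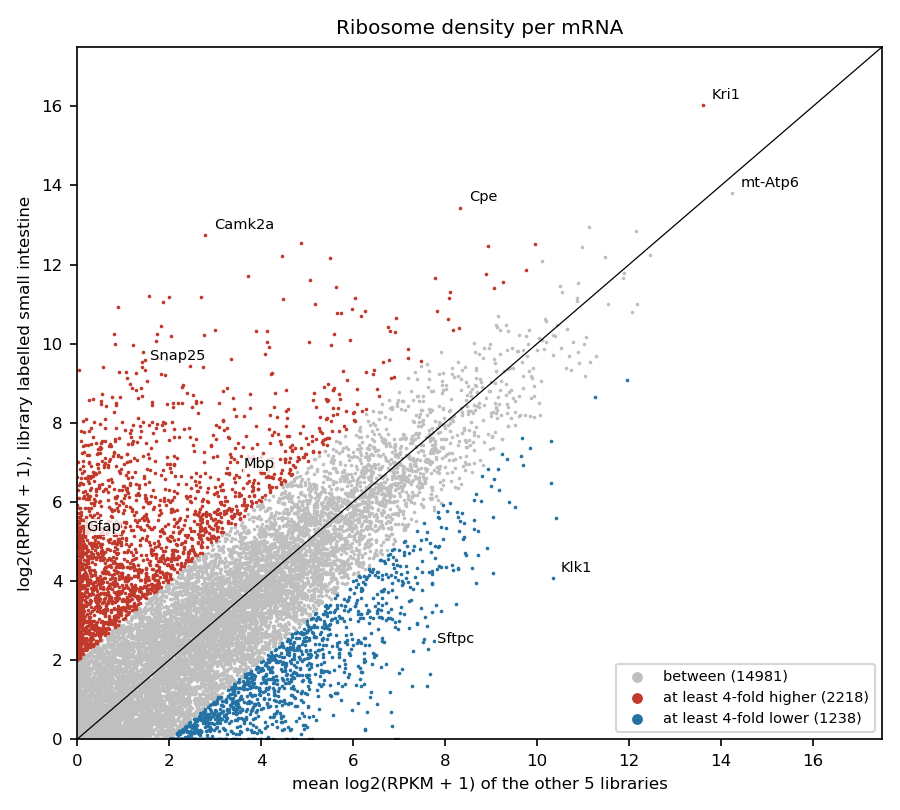
Ribosome density of 18437 mRNAs (points) in the library labelled small intestine (vertical axis) against the mean of the other 5 libraries (horizontal axis), both as log2(RPKM + 1), with the line of equality. The 2218 mRNAs at least 4-fold higher (red) include Camk2a, 9.96 above the mean of the others, and 1238 are at least 4-fold lower (blue).

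Most members of the neural lists were higher. The 18 lists of neurons, glia and the other cells of the brain hold 257 mRNAs, of which 198 were higher (77.0%, beside 12.0% of all mRNAs), 4 were lower and 188 peaked here. Their median difference was 4.54, and they held 15.8% of the reads. In contrast, 12 lists of cells from gut, muscle, heart, lung, kidney and blood hold 112 mRNAs, of which 14 were higher (12.5%) and 49 lower, with a median difference of -1.53. Of these 14, 10 also stand in a neural list, and the other 4 were Ednrb, Ret, Neurod1 and Nos1. The members and lists were chosen with earlier results of these data known, so these shares are descriptive and not independent evidence. With the heart- and lung-labelled libraries as the comparison, 194 neural mRNAs were higher. A pseudocount of 10, which shrinks the differences of sparse mRNAs, left 136, and the counts given below for single lists became 8 for postsynaptic scaffolds, 6 for ionotropic glutamate receptors, 9 for GABA, 2 for glutamatergic neurons, 10 for voltage-gated channels and 2 for oligodendrocyte precursors. Placing mRNAs without reads elsewhere at the bound that 3 reads give moved the median of a neural list by at most 0.34. In a lysate of whole tissue, more cells of a type, more mRNA per cell and more ribosomes per mRNA cannot be told apart.

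**Figure D3:**
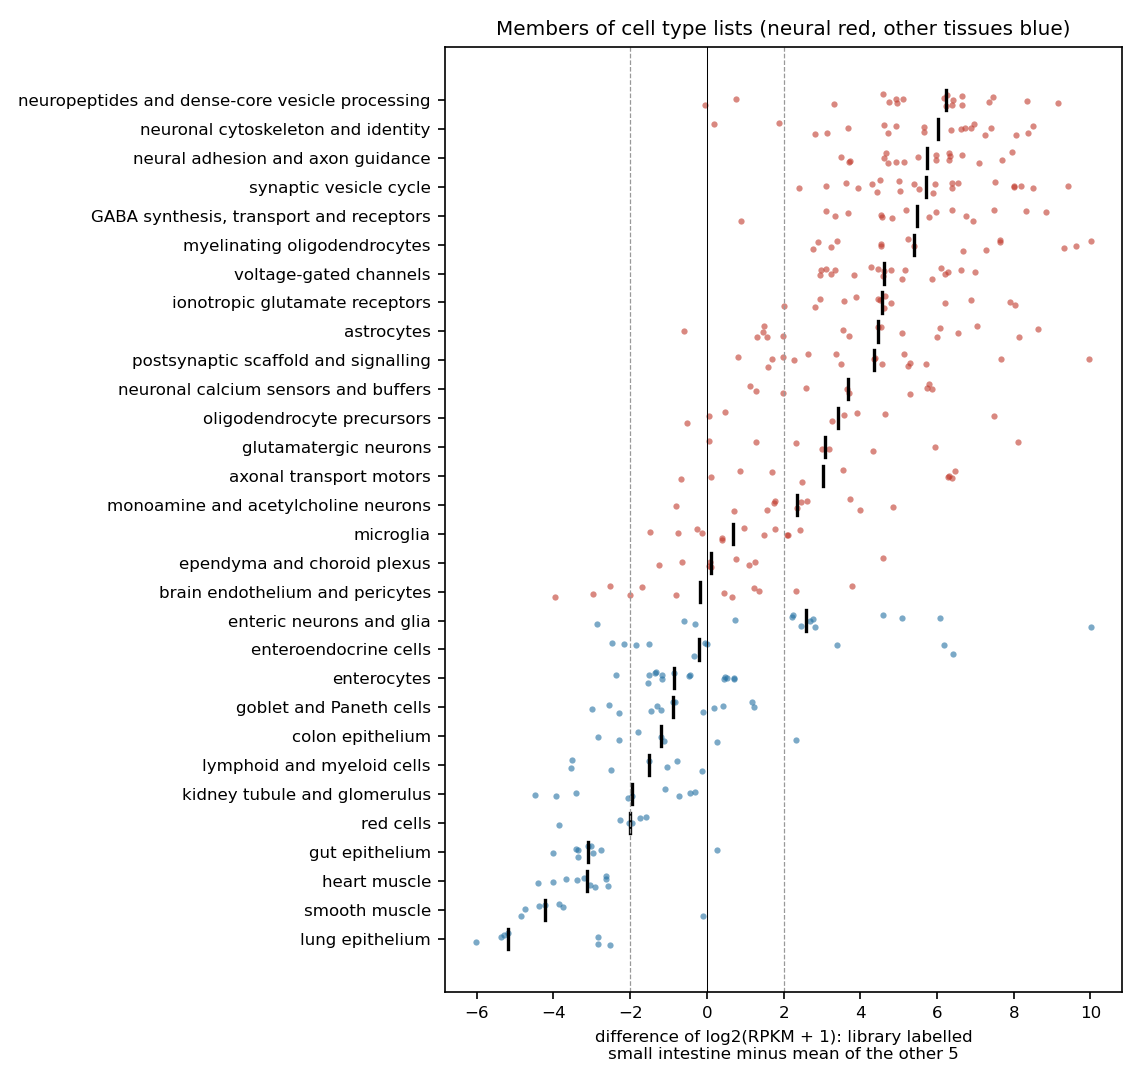
Difference of log2(RPKM + 1) between the library labelled small intestine and the mean of the other 5 (horizontal axis) for each member (points, jittered vertically) of the 18 neural lists (red) and the 12 lists of other tissues (blue), with the median of each list as a black bar and dashed lines at the 4-fold limits. Medians of the neural lists run from -0.19 for brain endothelium and pericytes to 6.23 for neuropeptides and dense-core vesicle processing.

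The promoters of neuronal genes often carry RE1, the site at which the repressor REST holds them silent in cells other than neurons. For this reason promoter sequences from RefSeq (GRCm38.p6, 250 bases before to 50 after the transcription start) were searched on both strands for both arms of this site, CAGCACC and GGACA, with 2 bases of any kind between them. These letters are 1 of 9 spellings tried with the calls known, which were held by 2 to 281 promoters, so that nothing is read from how many of the promoters belong to higher mRNAs. A promoter was matched by symbol for 13637 mRNAs, and 10 of them (0.0733%) held both arms. All 10 sites are shown as examples of the letters, with the arms in capitals and 8 bases on either side, read on the strand that carries them.
Ttc9b, chr7:27653935-27653964 (- strand): ctgagcatCAGCACCggGGACAgcgcgccg
Dner, chr1:84696348-84696377 (- strand): tgccggttCAGCACCaaGGACAagggcccc
Fam163b, chr2:27142558-27142587 (- strand): accagcgtCAGCACCagGGACAgttcctcg
Fbll1, chr11:35799050-35799079 (+ strand): cgtccagtCAGCACCagGGACAgctacctc
Sptbn4, chr7:27396274-27396303 (+ strand): tgcggctcCAGCACCacGGACAgttcccgg
Ogdhl, chr14:32321908-32321937 (+ strand): tgggaggtCAGCACCtcGGACAgcgagggc
Osbp2, chr11:3774785-3774814 (+ strand): caccgcttCAGCACCgcGGACAgcggccag
Hrh3, chr2:180104568-180104597 (+ strand): ggcgcgggCAGCACCacGGACAgcgccgcg
Lca5, chr9:83441282-83441311 (+ strand): acggagccCAGCACCcaGGACAgaccgaaa
Lhx3, chr2:26208269-26208298 (- strand): gcctccttCAGCACCgcGGACAgcgccagc
The first 8 of these belong to higher mRNAs, and Lca5 and Lhx3 to the others. Of all 13637 mRNAs with a promoter, 1636 were higher. Because the letters were picked with the calls known, the 8 are not read as an excess. The 8 include Dner, a Notch ligand of neurons, Sptbn4, the spectrin of axon initial segments, and Hrh3, the presynaptic histamine receptor. Dner stood at 0.128, 0.201, 0.608, 6.44 and 0.176 RPKM in the brain-, colon-, heart-, kidney- and lung-labelled libraries and at 359 RPKM here. Ttc9b stood at 272 RPKM here and at no more than 0.511 RPKM elsewhere. Ogdhl was densest in the heart-labelled library, at 39.5 RPKM, and at 17.6 RPKM here, whereas the other 7 had their highest density here, down to 3.93 RPKM for Hrh3. Lca5 had 14.1 RPKM in the lung-labelled library and 6.57 RPKM here, and Lhx3 had no reads in any library. Whether these letters are bound in the tissue was not measured, and promoters without them may hold other forms of the site.

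Neuronal cytoskeleton and identity genes were higher for 18 of 20 mRNAs, with a median difference of 6.01. Stmn3, a stathmin that binds tubulin, stood at 0.174, 1.64, 3.85, 17.1 and 0.479 RPKM in the brain-, colon-, heart-, kidney- and lung-labelled libraries and at 1213 RPKM here. The microtubule-associated protein of dendrites, Map2, stood at 0.0788, 2.64, 1.15, 3.67 and 0.0434 RPKM in the same libraries and at 563 RPKM here. The groups did not overlap for either mRNA. The neurofilament subunits Nefl, Nefm and Nefh were at 602, 623 and 166 RPKM here and at no more than 9.61, 4.77 and 1.18 RPKM elsewhere. Uchl1, a deubiquitinase abundant in neurons, was at 858 RPKM here and at 4.98 to 32.3 RPKM elsewhere, and Map1a at 689 RPKM and 0.368 to 11.0 RPKM. Rbfox3, which encodes the neuronal nuclear antigen NeuN, had 439 reads here (51.2 RPKM) and 0.118 RPKM in the kidney-labelled library, with none in the other 4. The exceptions were Dpysl2, at 718 RPKM here and 1360 RPKM in the lung-labelled library, and Dpysl3, which encode collapsin response mediators made outside neurons as well.

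Of 10 motors of axonal transport, 6 were higher (median difference 3.02). They were the kinesins Kif1a, Kif1b, Kif3a, Kif5a and Kif5c and the dynein intermediate chain Dync1i1. Kif5a was at 199 RPKM here and at 0.0420 to 6.08 RPKM elsewhere, Dync1i1 at 135 RPKM and 0 to 5.59 RPKM, and Kif3a at 176 RPKM and 4.67 to 31.1 RPKM. Kif1b, at 137 RPKM, was nearer to its 15.4 to 38.7 RPKM elsewhere. Among the 4 motors that were neither higher nor lower, Kif5b was at 115 RPKM here and 72.7 to 139 RPKM elsewhere. Another, the dynein heavy chain Dync1h1, was at 27.7 RPKM here and 29.7 to 86.2 RPKM elsewhere.

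All 22 mRNAs of the synaptic vesicle cycle were higher and all 22 peaked here, with a median difference of 5.72 and the smallest difference, 2.39, for the proton pump subunit Atp6v0a1. Sv2a, a glycoprotein of the vesicle membrane, had the highest density of the list at 3375 RPKM, with 6.89, 102, 34.9, 12.1 and 0 RPKM in the brain-, colon-, heart-, kidney- and lung-labelled libraries. Syt1, the calcium sensor of fast release, stood at 2332 RPKM here against 11.1, 0.703, 2.32, 23.6 and 5.43 RPKM. The complexins, which clamp SNARE complexes, followed with Cplx2 at 3133 RPKM here against 22.5, 60.2, 25.2, 52.5 and 19.3 RPKM. No other library came near these levels. Cplx1 was at 1201 RPKM here, at 9.18 RPKM in the kidney-labelled library, at 0.608 RPKM in the heart-labelled one and at 0 in the other 3. Vamp2, a partner of Snap25 in the SNARE complex, was also higher, at 994 RPKM here and 13.7 to 156 RPKM elsewhere. The active zone scaffolds Bsn and Pclo had lower densities, 16.0 and 21.9 RPKM, and at most 0.223 and 0.438 RPKM elsewhere.

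On the postsynaptic side, 13 of 17 scaffold and signalling mRNAs were higher (median difference 4.36). Camk2a, the alpha subunit of the calcium/calmodulin-dependent kinase of the postsynaptic density, stood at 20.8, 1.36, 7.83, 10.6 and 1.94 RPKM in the brain-, colon-, heart-, kidney- and lung-labelled libraries and at 6863 RPKM here, with 76963 reads. It was the mRNA with the sixth highest density of the library. Nrgn, which binds calmodulin in dendritic spines, stood at 32.5, 41.7, 10.4, 19.2 and 61.4 RPKM in the others and at 5950 RPKM here. These mRNAs exceeded the next library 329-fold and 97.0-fold. The calcineurin subunit Ppp3ca was at 394 RPKM here and at 0.0828 to 48.8 RPKM elsewhere, and the spine protein Ppp1r9b (spinophilin) at 164 RPKM and 17.95 to 38.1 RPKM. Shank2, Shank3, Baiap2 and Sptan1 were not higher, and Shank3 and Baiap2 were densest in the lung-labelled library, at 49.7 and 66.3 RPKM.

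All 14 subunits of ionotropic glutamate receptors were higher, with a median difference of 4.57, and all 14 peaked here. Within the family the densities here ran from 3.16 RPKM for Grin2d to 402 RPKM for Grin1, the obligatory subunit of NMDA receptors. Grin1 stood at 0.131, 1.31, 0.552, 1.97 and 0.135 RPKM in the other 5 libraries, in the order brain, colon, heart, kidney and lung. The AMPA receptor subunits were at 367 RPKM for Gria1, 372 for Gria2, 171 for Gria3 and 39.4 for Gria4. Gria1 and Gria2 were close to each other, and Gria4 was the lowest of these 4. Outside this library Gria1 and Gria3 reached 20.0 and 25.2 RPKM in the lung-labelled library, whereas Gria2 did not exceed 0.996 RPKM. Among the regulatory NMDA receptor subunits, Grin2a and Grin2b, at 21.6 and 25.7 RPKM, were denser than Grin2c and Grin2d, at 11.8 and 3.16 RPKM.

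Transmitter phenotypes differed in density. The vesicular glutamate transporter Slc17a7 of cortical and hippocampal neurons was at 770.3 RPKM here, with 3.32, 0.379, 8.63, 1.65 and 0.0737 RPKM in the brain-, colon-, heart-, kidney- and lung-labelled libraries. Slc17a6, the transporter of subcortical neurons, was at 84.5 RPKM here and at 0 to 3.12 RPKM elsewhere. Altogether 6 of 8 mRNAs of glutamatergic neurons were higher (median difference 3.08).

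For GABA, the inhibitory transmitter, 15 of 16 mRNAs were higher and the median difference was 5.48. The synthetic enzyme Gad1 stood at 0, 0, 0.206, 0.0741 and 0.800 RPKM in the brain-, colon-, heart-, kidney- and lung-labelled libraries and at 380.1 RPKM here. The other 5 libraries thus stayed below 1 RPKM. The other synthetic enzyme, Gad2, was at 56.3 RPKM, the vesicular transporter Slc32a1 at 50.1 RPKM, and the receptor subunits Gabra2 and Gabrb2 at 115 and 67.4 RPKM. Gabrb1 and Gabra5 had 296 and 125 reads here and none elsewhere, which made them at least 58.1-fold and 24.6-fold higher than 3 reads would give in the shallowest of the other libraries. The exception was Gphn, which encodes the scaffold gephyrin and was at 17.8 RPKM here and 2.52 to 22.7 RPKM elsewhere.

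Markers of monoamine and acetylcholine neurons were sparser, with 6 of 11 higher and a median difference of 2.34, and with a pseudocount of 10 none of the 11 was higher. The dopamine transporter Slc6a3 had 398 reads here (28.04 RPKM) and none elsewhere, at least 78.2-fold higher than 3 reads would give. The vesicular monoamine transporter Slc18a2 was at 22.8 RPKM and the choline transporter Slc5a7 at 19.4 RPKM, with at most 4.51 and 5.84 RPKM elsewhere. Dbh, the enzyme that makes noradrenaline, was at 13.1 RPKM here and at 12.0 RPKM in the brain-labelled library, so that these libraries were close. Th, the rate-limiting enzyme of dopamine synthesis, had 29 reads here (2.54 RPKM).

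All 19 voltage-gated channel mRNAs were higher (median difference 4.63), and 17 of them peaked here. The sodium channel subunits Scn2b, Scn2a and Scn8a had the highest densities, at 244, 182 and 179.9 RPKM, and did not exceed 13.7 RPKM elsewhere. Scn8a, the channel of nodes of Ranvier, stood at 0.820, 0.298, 0.389, 0.354 and 0.304 RPKM in the brain-, colon-, heart-, kidney- and lung-labelled libraries. The embryonic sodium channel Scn3a did not peak here, with 29.2 RPKM here and 26.8 RPKM in the lung-labelled library. The potassium channel Kcnd2 fell just short of a peak on the RPKM + 1 scale, with 45.4 RPKM here and 22.3 RPKM in the heart-labelled library, the tissue whose transient outward current it also carries. Of 10 calcium sensors and buffers, 7 were higher (median difference 3.69). Among those that were not higher were Calm2 and Calm3, at 4352 and 379.8 RPKM, which encode calmodulin in all cells. Calm2 fell just short, with a difference of 1.98 and 611 to 1641 RPKM elsewhere. Parvalbumin (Pvalb), calretinin (Calb2) and calbindin (Calb1), which mark classes of interneurons, were at 70.2, 113 and 227 RPKM. Calb1 was denser in the colon-labelled library (3170 RPKM), where the kidney markers were highest.

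All 18 mRNAs of neural adhesion and axon guidance were higher, with a median difference of 5.74. Negr1, a GPI-anchored adhesion molecule of neurons, had the highest density, with 1760 RPKM here and 39.4, 49.97, 21.5, 80.0 and 80.3 RPKM in the brain-, colon-, heart-, kidney- and lung-labelled libraries. The contactins of the axon membrane, Cntn1 and Cntn2, were at 494 and 472 RPKM here and at no more than 14.3 and 35.1 RPKM elsewhere, and Ntm was at 353 RPKM against at most 1.30 RPKM. The presynaptic neurexins Nrxn2 and Nrxn3 were at 28.3 and 72.2 RPKM, and their partners Nlgn1, Nlgn2 and Nlgn3 at 12.5, 40.3 and 33.4 RPKM. L1cam alone of this list fell just short of a peak on the RPKM + 1 scale, since the kidney-labelled library held 109 RPKM against 218 RPKM here.

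Peptides and the machinery of dense-core vesicles had the highest median difference of the 18 neural lists (6.23), with 17 of 19 higher. The granins, which form the core of the vesicle, were not near 0 in every other library. Chgb stood at 664, 1.97, 8.84, 1224 and 7.01 RPKM in the brain-, colon-, heart-, kidney- and lung-labelled libraries and at 4567 RPKM here. Chga stood at 426, 0.639, 3.08, 523 and 0.0931 RPKM in the same libraries and at 1268 RPKM here. The brain- and kidney-labelled libraries, where gut epithelium markers were highest, thus came between this library and the other 3. Scg2 had the same order, with 1300 RPKM here, 93.5 RPKM in the kidney-labelled library and 81.9 RPKM in the brain-labelled one. Processing enzymes differed from each other in this respect. Pcsk1, the convertase that enteroendocrine cells also use, was at 156 RPKM here, 68.9 RPKM in the kidney-labelled library and 57.4 RPKM in the brain-labelled one, whereas Pcsk2 was at 1010 RPKM here, 7.94 RPKM in the kidney-labelled library and 0 in the brain-labelled one.

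Among the peptides themselves, Cck had the highest density, with 1277 RPKM here and 54.5, 79.0, 6.08, 10.8 and 0.965 RPKM in the brain-, colon-, heart-, kidney- and lung-labelled libraries. The opioid precursor Penk was at 419 RPKM here and 4.41 to 32.3 RPKM elsewhere, Tac1 (substance P) at 362 RPKM and 0 to 44.3 RPKM, and Pdyn at 88.3 RPKM and 0 to 0.354 RPKM. Vip, a peptide of interneurons and of enteric neurons, was at 193 RPKM here, 146 RPKM in the kidney-labelled library and 117 RPKM in the brain-labelled one. Nts was neither higher nor lower, with 4.90 RPKM here and 112 RPKM in the brain-labelled library. Pam, the amidating enzyme, was at 159 RPKM here and at 483 RPKM in the heart-labelled library, whose atrial cells secrete peptides too.

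Myelinating oligodendrocytes were represented by 15 mRNAs, all of them higher, with a median difference of 5.41, and 14 peaked. Mag, an adhesion molecule of the inner myelin membrane, stood at 4.05, 0.236, 0.845, 4.49 and 2.54 RPKM in the brain-, colon-, heart-, kidney- and lung-labelled libraries and at 2339 RPKM here. Mog, which is made by oligodendrocytes and not by Schwann cells, had 3670 reads here (648 RPKM) and 1 read in the brain-labelled library, with none in the other 4. Cnp was at 286 RPKM here and 5.63 to 34.3 RPKM elsewhere. Mobp and Gjc3 had 162 and 59 reads here and none elsewhere. Of 8 markers of oligodendrocyte precursors, 5 were higher (median difference 3.42). Bcan and Ptprz1, at 310.1 and 67.9 RPKM, are made by astrocytes as well, and Olig1, Olig2 and Gpr17 were at 14.4, 15.5 and 8.62 RPKM. Pdgfra, Cspg4 and Vcan, which fibroblasts and pericytes share, were at 123, 28.9 and 9.70 RPKM, within the range of the other libraries.

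In astrocytes, 11 of 17 markers were higher, with a median difference of 4.47. The glutamate transporter Slc1a2 stood at 0.110, 2.07, 3.92, 5.92 and 3.62 RPKM in the brain-, colon-, heart-, kidney- and lung-labelled libraries and at 1393 RPKM here. Sparcl1 (hevin), which is secreted, stood at 431, 100.3, 369, 793 and 2161 RPKM in the others and at 5700 RPKM here. Slc1a2 exceeded the next library 235-fold and Sparcl1 2.64-fold. Clu, a secreted chaperone, was at 1590 RPKM here and 829 RPKM in the heart-labelled library. Mlc1, a membrane protein of astrocyte endfeet, was at 1169 RPKM here and 79.1 RPKM in the lung-labelled library. The 6 that were not higher were Aqp4, Gja1, Glul, Ndrg2, Slc4a4 and Aldh1l1. Each is used by other organs, and Aqp4 was denser in the kidney-labelled library (403 RPKM) than here (163 RPKM).

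Microglia, vessels and ventricle linings did not follow the neurons and macroglia. Of 12 microglia markers, 3 were higher (median difference 0.67), namely Cx3cr1, P2ry12 and Trem2, at 19.7, 4.52 and 4.03 RPKM. With a pseudocount of 0.1 there were 5 and with 10 none, and the 2 higher endothelial markers below were also lost with 10. P2ry12, which marks microglia among macrophages, had 36 reads here and 1 read in the other 5 libraries together. Markers shared with tissue macrophages lay within the range of the others, such as C1qa at 76.4 RPKM and Ctss at 59.7 RPKM and, above that range, Csf1r at 39.8 RPKM. Of 12 markers of brain endothelium and pericytes, 2 were higher and 4 lower (median difference -0.19). The higher ones were the transporters of the blood-brain barrier Slco1c1 and Mfsd2a, at 13.7 and 4.08 RPKM here and at most 0.207 and 0.0807 RPKM elsewhere. The lower ones were Pecam1 and Cdh5, which all endothelia share, Pdgfrb of pericytes, and the efflux pump Abcb1a, with Cdh5 at 15.2 RPKM here and 1139 RPKM in the lung-labelled library. Cldn5, Slc2a1 and Itm2a, at 42.4, 27.9 and 14.6 RPKM, were neither. In the ependyma and choroid plexus list, 1 of 9 was higher. This was Ttr, the thyroxine carrier secreted by choroid plexus and liver, at 1819 RPKM here and 9.42 to 654 RPKM elsewhere, while Sostdc1, Kl and Clic6 were at 34.3, 6.67 and 5.93 RPKM.

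**Figure D4:**
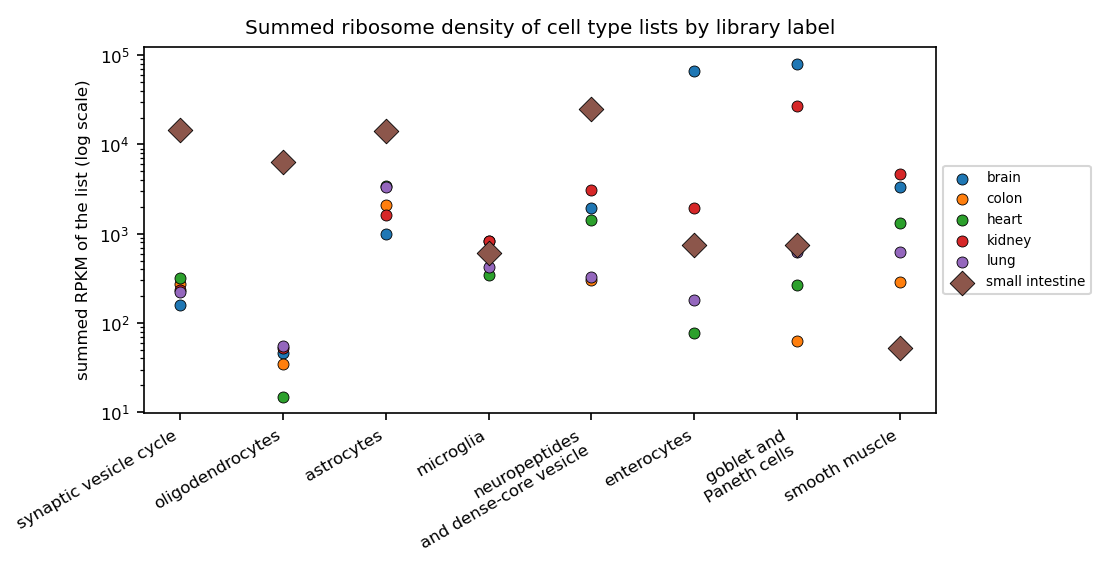
Summed RPKM (log axis) of 8 cell type lists in each library, with 1 point per library and a diamond for that labelled small intestine. The diamond is above every other library for the synaptic vesicle (14704 RPKM), oligodendrocyte (6373 RPKM), astrocyte and neuropeptide lists, among the others for microglia, and below every other library for smooth muscle (52.4 RPKM).

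Markers of brain regions were higher in part, and most of these calls depended on the pseudocount. With a pseudocount of 10 in place of 1, the counts of higher mRNAs given next became 1 for striatum, 1 for cortex and hippocampus, 2 for cerebellum and 0 for thalamus and hypothalamus. From the striatum list, 7 of 8 mRNAs were higher (median difference 2.85), including the dopamine receptors Drd1 and Drd2 at 25.1 and 4.03 RPKM and the phosphodiesterase Pde10a at 14.5 RPKM. From cortex and hippocampus 5 of 8 were higher (2.34), with the transcription factor Neurod6 at 20.7 RPKM here and at most 0.522 RPKM elsewhere. From the cerebellum 6 of 11 were higher (3.21), and these were sparse. Pcp2 of Purkinje cells had 29 reads, Cbln3 of granule cells had 84 reads, and Gabra6, the receptor subunit that defines granule cells, had none here, which allows up to 0.289 RPKM. From thalamus and hypothalamus 4 of 9 were higher (1.44). These were the peptides Pmch, Oxt, Pomc and Avp, with 83, 20, 24 and 16 reads, while Hcrt and Agrp had none. Of the 7 mRNAs on the pituitary list, Gh, Prl, Pou1f1 and Cga were not among the mRNAs covered by the data. Of the 3 that could be read, 1 was higher, though not with a pseudocount of 10. The pituitary hormones Tshb and Lhb had no reads here.

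The use of isoforms gave a comparison within each library, since RPKM is per length. Of 10 pairs of a brain-enriched isoform and its counterpart in other tissues, the ratio was highest here in 9. The brain-enriched isoform was the denser of the pair in 7 here and in 1 or 2 pairs in each of the other libraries. The pairs were picked for isoforms enriched in brain, so these counts are descriptive and not independent evidence. Aldolase C was at 242 RPKM and aldolase B at 16.3 RPKM here, and the glucose transporters Slc2a3 and Slc2a1 at 88.1 and 27.9 RPKM. For enolase the pair was even here, with 123 RPKM of Eno2 and 132 RPKM of Eno1. Of the 12 brain-enriched isoforms listed, 11 were higher, with a median difference of 6.14, and the 10 counterparts had a median difference of -0.41. The pair whose ratio was not highest here was that of the elongation factors, for which Eef1a2 over Eef1a1 had a log2 ratio of 0.97 in the heart-labelled library and -0.07 here. Eef1a2 is the form of muscle as well as of neurons.

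**Figure D5:**
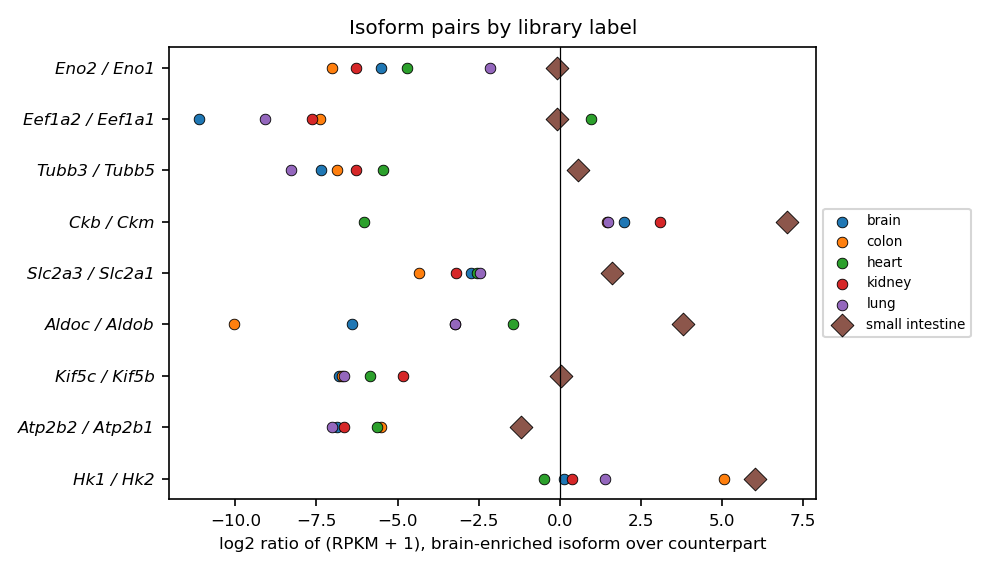
Log2 ratio of (RPKM + 1) of the brain-enriched isoform over its counterpart (horizontal axis) for 9 of the 10 pairs (rows), with 1 point per library and a diamond for that labelled small intestine. The diamond lies furthest to the right in 8 of these and is passed by the heart-labelled library (0.97) for Eef1a2 and Eef1a1.

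Among the 25 mRNAs with the largest differences, 18 stood in a neural list, beside 257 of all 18437 mRNAs. The lists were chosen with earlier results of these data known, so this count is descriptive. Among the other 7 were Sncb, Luzp2, Dpp6, Lamp5, Atp6v1g2 and Clstn3. The presynaptic protein Sncb (beta-synuclein) stood at 0.707, 6.68, 4.59, 5.62 and 0.324 RPKM in the brain-, colon-, heart-, kidney- and lung-labelled libraries and at 2125 RPKM here. Dpp6, an auxiliary subunit of potassium channels, stood at 1.42, 0.431, 1.52, 13.4 and 1.958 RPKM in the same libraries and at 1072 RPKM here. Both were named for their large differences, so separation from the other libraries follows from that choice. Lamp5, found in cortical interneurons, was at 387 RPKM, Clstn3, a synaptic adhesion molecule, at 744 RPKM, Atp6v1g2, the neuronal subunit of the proton pump, at 623 RPKM, and Luzp2 at 994 RPKM, with at most 0.727, 2.90, 7.08 and 3.50 RPKM elsewhere. Of the 376 mRNAs at least 32-fold above the others, 104 stood in a neural list, a count with the same limit. By density, 8 of the 15 leading mRNAs were higher, namely Kri1, Cpe, Camk2a, Nrgn, Pea15a, Sparcl1, Aplp1 and Chgb. Among these, Aplp1, a relative of the amyloid precursor, was at 4744 RPKM and Pea15a, a phosphoprotein of astrocytes, at 5902 RPKM. The lipid carrier Apoe, at 7959 RPKM, was not higher, with 1757 to 3375 RPKM elsewhere. The other 6 of the 15 are used by most cells and were not higher, namely mt-Atp6, Ptms, Atp1b1, Rpl41, Mdh1 and Calm2, at 14382, 7307, 5572, 4839, 4663 and 4352 RPKM. Of these, Calm2 fell just short of the limit, with a difference of 1.98, and it peaked here.

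The intestine has neurons, glia and endocrine cells of its own, and their lists were read for this reason. Of 14 markers of enteric neurons and glia, 10 were higher and 1 was lower (median difference 2.58), and with a pseudocount of 10 there were 4 higher. Vip, Chat, Gfap, Sox10, S100b and Elavl4 are shared with the brain lists, and the higher mRNAs outside those lists were Ret, Ednrb and Nos1, which the brain also expresses. The transcription factors Hand2 and Phox2a of enteric neurons were at or near 0, with no reads of Hand2 here, which allows up to 0.603 RPKM, and 1 read of Phox2a. Hand2 was at 14.7 RPKM in the brain-labelled library and 17.4 RPKM in the kidney-labelled one. Of 10 enteroendocrine markers, 3 were higher (Cck, Chga and Neurod1) and 2 lower, and Pyy, Ghrl and Neurog3 had no reads here. Smooth muscle, the outer layer of the gut wall, was lower for 6 of 7 mRNAs (median difference -4.23), with Acta2 at 6.25 RPKM here and 24.1 to 558 RPKM elsewhere.

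Epithelial markers were low but not absent. Of the 9 general markers of gut epithelium, 8 were lower (median difference -3.10), with Cdh1 (E-cadherin) at 6.91 RPKM here and 10.2 to 624 RPKM elsewhere. Of 15 enterocyte mRNAs none was higher and 1 was lower. Apoa1 and Fabp2 stood at 251 and 280.4 RPKM here, far below the 30284 and 24021 RPKM of the brain-labelled library and above the colon-, heart- and lung-labelled ones, where Apoa1 was at 108, 15.6 and 22.2 RPKM. With the heart- and lung-labelled libraries as the comparison, 6 of the 15 became higher, and 5 did so without the brain-labelled library. The 13 goblet and Paneth cell mRNAs gave 0 higher and 3 lower, with a summed 755 RPKM here and 80391 RPKM in the brain-labelled library. Of these, 4 became higher against the heart- and lung-labelled libraries, 3 against the median of the others and 2 without the brain-labelled library. All 10 heart muscle and all 7 lung epithelium mRNAs were lower, as were 4 of 9 of the kidney, 2 of 7 of colon epithelium, 3 of 6 of red cells and 3 of 7 of lymphoid and myeloid cells. Whether RNA from other tissues took part in these results was not tested.

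Of the mRNAs with at least 1000 reads in another library, the 10 with the lowest differences here were Myl12a, Klk1, Ces1d, Plvap, Aqp1, Chmp4c, Sftpa1, Dpt, Myl9 and Gimap6. Klk1, a kallikrein of kidney and glands, stood at 3366, 13510, 58.7, 17498 and 75.7 RPKM in the brain-, colon-, heart-, kidney- and lung-labelled libraries and at 15.7 RPKM here. Plvap, the diaphragm protein of fenestrated endothelium that vessels with a blood-brain barrier lack, stood at 93.8, 168, 40.7, 45.6 and 576 RPKM in the others and at 0.597 RPKM here, with 6 reads. Both were named for their low differences, so levels below those of the other libraries follow from that choice. Myl12a and Myl9, regulatory light chains of non-muscle and smooth muscle myosin, had 1 and 5 reads here, and Dpt, a matrix protein of fibroblasts, had 7. The 1238 lower mRNAs together held 1.17% of the reads here and between 21.8% and 32.3% of the reads of each other library. This contrast follows from how they were chosen.

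CDS length and codon composition were also compared, of which length enters the calls through RPKM and the pseudocount. CDSs of the higher mRNAs had a median length of 1422 nt, against 1320 nt for all mRNAs and 1311 nt for the 3032 mRNAs that were not higher but of similar density here (11.5 to 74.7 RPKM, the quartiles of the higher mRNAs). The neural lists had a median of 1716 nt. The share of codons ending in G or C (GC3) had a median of 64.1% for higher mRNAs (quartiles 54.7% and 70.7%), 58.9% for all mRNAs (49.5% and 67.0%) and 58.0% for those of similar density. It could be read for at least 98% of each set, from CDSs of the same length in GENCODE release M39. The quartiles overlapped widely in both measures. Among the 2060 higher mRNAs with reads elsewhere, the heart-labelled library was the next highest for 572 (27.8%, beside 21.1% of all mRNAs) and the kidney-labelled one for 521 (25.3%, beside 15.7%). Those labelled lung, colon and brain were the next highest for 413 (20.0%, beside 27.6%), 335 (16.3%, beside 18.4%) and 219 (10.6%, beside 17.2%).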

How the data were processed

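The authors deposited 1 table of RPKM values per library, with the transcript, the gene and the CDS position in each row name. Per the labels, tissues were lysed with cycloheximide, digested with RNase I, and fragments of about 25-35 nt were sequenced. The submitters' processing notes name cutadapt, STAR and GRCm39. The Methods, written for macrophage libraries and taken to hold here, describe alignment to 1 mRNA per gene, that of longest CDS, and exclusion of multi-mapped reads, so that genes with near-identical copies may be underestimated. RPKM depends on all CDS reads, so that an mRNA such as Kri1 lowers all others in its library.

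The product of RPKM and CDS length was a whole number of reads (tolerance 0.001 of a read) for 100% of values in every library, 4504853 to 10635031 reads in all. Symbols came from GENCODE release M39, for 18424 of 18437 mRNAs. Samples were grouped by tissue label. With 1 library per group no count model could give a test, and differences of log2(RPKM + 1) are descriptive. Pseudocount 1 understates the change of low mRNAs.

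Named mRNAs were the 4 markers, the 15 of highest RPKM, the 25 of largest difference with at least 50 reads, the 10 of lowest difference with at least 1000 reads in another library, and members of the lists, of which the 4 of highest RPKM in each neural list are given. Some mRNAs that this rule names are not reported here and still stand in the counts. The members and lists were chosen with earlier results of these data known. Alternatives were pseudocounts of 0.1 and 10, at least 10 reads, the median of the others, Kri1 left out, TMM scaling, thinning to the lowest total, a 2-fold limit, the libraries labelled heart and lung alone, and leaving out each other library. The steps were tested on simulated data. Python 3.11.15 with numpy 2.4.6, pandas 2.3.3, scipy 1.17.1 and matplotlib 3.10.9 was used.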

Additional observations from a re-analysis of the deposited data

How the results depend on the processing

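No paired analysis was possible because each tissue has 1 library. No result reversed its direction. The 2218 higher, 1238 lower and 2063 peaking mRNAs became 4129, 1973 and 2708 with a pseudocount of 0.1, 721, 343 and 1124 with a pseudocount of 10, and 4155 higher and 3364 lower with a 2-fold limit. Leaving out each other library in turn gave 2128 to 2386 higher, 1199 to 1482 lower and 2174 to 2408 peaking mRNAs. The 198 higher mRNAs of the neural lists ranged from 136 (pseudocount 10) to 210 (pseudocount 0.1), and from 197 to 202 with a library left out. The 14 higher mRNAs of other tissues became 6 with a pseudocount of 10, 24 against the libraries labelled heart and lung, and 13 to 22 with a library left out, where the 22 came without that labelled brain. The 54.5% of reads on higher mRNAs became 55.9% and 48.1% with pseudocounts of 0.1 and 10, 53.8% against the median, 48.3% of the remaining reads without Kri1, 55.8% with TMM scaling and 54.4% after thinning. Leaving out a library gave 41.2% to 54.9%, the lowest without that labelled lung, where Kri1 was no longer higher. Differences (log2) with pseudocounts of 0.1 and 10 were 9.22 and 5.78 for Snap25 and 8.38 and 2.11 for Gfap. With a pseudocount of 10 they were 2.43 for Mbp and 5.05 for Cpe. Against the median, Snap25 stood at 8.60 and Cpe at 5.25. Without Kri1, Gfap stood at 5.31 and Cpe at 5.22, and Cpe at 5.25 with TMM scaling. Against the libraries labelled heart and lung, Snap25 stood at 8.63, Mbp at 4.01 and Cpe at 4.85. With a library left out, the ranges were 7.67 to 8.63 for Snap25, 2.89 to 3.55 for Mbp and 4.76 to 5.48 for Cpe, while Gfap stayed at 5.10. Of 520 counts of single lists under 13 alternatives, 484 stayed within 1.5 times the main count and 36 did not. The cause was not tested. The depth of 1 library per tissue bounds counting error and says nothing of the spread between animals.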

Other observations

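Genes tied to neurodegeneration in humans were mixed in the library labelled small intestine. Of 14 such mRNAs 5 were higher (3 against the median of the others) and none lower, with a median difference of 0.68. The amyloid precursor App stood at 3695 RPKM here and at 245 to 1740 RPKM elsewhere, and Prnp at 767 RPKM and 46.9 to 225 RPKM. Mapt (tau) was at 78.2 RPKM here and reached 24.8 RPKM in the lung-labelled library. Sod1, Park7 and Grn, which all tissues express, were at 185, 242 and 80.4 RPKM and were not higher.

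Of 9 immediate early genes, 3 were higher, with 5 and 1 at pseudocounts of 0.1 and 10. Arc, an effector of synaptic plasticity, stood at 67.3 RPKM here and at 0.0791 to 2.80 RPKM elsewhere, and Egr1 at 22.3 RPKM and 0 to 7.93 RPKM, whereas Fos was at 32.1 RPKM here and 94.1 RPKM in the brain-labelled library. None of the 10 mitochondrially encoded mRNAs covered by the data was higher or lower, with a median difference of -0.16. They summed to 24107 RPKM here, within the 11569 to 64783 RPKM of the others. Of the 13 on that list, mt-Nd4, mt-Co3 and mt-Cytb were not covered.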
